A study of Mus musculus with 4 samples.

Results

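Of the 55487 genes counted in mouse embryonic fibroblasts (MEFs), 42 protein-coding genes were examined here because their names start with Srsf, Hnrnp or Snrp, which mark 3 families of the splicing machinery. They were 11 SR genes (Srsf1 to Srsf7 and Srsf9 to Srsf12), 20 hnRNP genes and 11 snRNP genes (Snrpa to Snrpg with their numbered relatives, leaving out the imprinted Snrpn). Another 6 genes had matching names but were annotated as pseudogenes or other types and were not counted among them. MEFs are primary cells grown from mouse embryos, here of wild-type genotype and given as passage 2 in the sample labels, whereas the study's own account gives a later passage. Pigment epithelium-derived factor (PEDF, product of Serpinf1) is a secreted glycoprotein. The recombinant protein, purified from mammalian cells, was added at 100 ng/mL for 24 h, and control MEFs were left without it. Each of the 2 experiments had its own embryos and gave 1 control library and 1 PEDF library, so the comparison asked how PEDF-treated MEFs differed from control MEFs of the same experiment.

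SR proteins bind exonic enhancers through RNA recognition motifs and recruit the spliceosome through tails rich in arginine and serine, whereas hnRNP proteins coat nascent transcripts and often oppose exon inclusion. The snRNP genes examined encode the ring of Sm proteins that surrounds spliceosomal snRNAs, and proteins particular to the U1 and U2 particles. Many SR and hnRNP proteins limit their own mRNA by promoting the splicing of a poison exon, which sends the transcript to nonsense-mediated decay.

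The 4 libraries held 14722848 to 18144640 counts, and the 42 genes together took between 0.943% and 0.965% of them. Every one of the 42 was detected in every library, with 579 to 13206 counts except for Srsf12, which had 41 to 55. Counts were expressed as CPM (counts scaled to a common library size) with TMM factors. All 10 fibroblast markers, among them Col1a1, Vim and Pdgfra, were present in every library. Their summed level was 46770 CPM in control and 42360 in PEDF MEFs of experiment 1, and 54540 and 45670 in experiment 2, lower with PEDF in both. Marker sums of other cell types were 97.8 to 150.5 CPM for macrophages, 16.3 to 17.4 for endothelium, 7.29 to 13.0 for epithelium (Esrp1 at 0 in some libraries) and 369.0 to 446.9 for neural cells. The 6 skeletal muscle markers summed to 302.6 CPM in control and 348.4 in PEDF MEFs of experiment 1, and to 359.5 and 433.2 in experiment 2. Of these muscle markers 3 were called higher by edgeR with the replicate block described below, and of the 8 macrophage markers 1 was called higher. Of the fibroblast markers 2 were called higher and 4 lower, and none of the other lists had a call, in a fit that called 3.75% of all genes. Without the block edgeR called 0 markers of any list, and 0.00516% of all genes. The part of these cells in the results below was not tested, and in bulk RNA a change in cell number cannot be told apart from a change in RNA per cell.

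Differences between PEDF and control MEFs were small throughout the 3 families. The largest fitted differences were log2 fold changes of -0.21 for Srsf5 and 0.20 for Snrpd2. In edgeR's quasi-likelihood test with treatment as the only term, 0 of the 42 genes were called higher and 0 lower where the threshold was an adjusted p of 0.05. Of the 19384 genes in this test, 0% were called higher and 0.00516% lower. At an unadjusted p under 0.05, 4 of the 42 passed (Srsf5 and Srsf11 lower, Snrpd2 and Snrpd3 higher), against 6.88% of all genes in either direction. DESeq2 also called 0 of the 42, where 0.0115% of all genes were called. It had 1 of the 42 at an unadjusted p under 0.05. The share of all genes at that threshold was not computed for DESeq2, here or below.

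Because the submitters' design text gives each experiment its own embryos, the experiment was also fitted as a replicate block, and this fit called 3 of the 42 genes. Srsf5 and Srsf11 were called lower and Snrpd2 higher by edgeR with the block, which called 3.75% of all genes (1.67% higher and 2.07% lower). At an unadjusted p under 0.05 it passed 5 of the 42, the 3 named and Snrpd1 and Snrpd3, against 14.6% of all genes. DESeq2 with the block called 0 of the 25 members for which it gave an adjusted p, with 2 of the 42 at an unadjusted p under 0.05, and it called 6.55% of the 1817 genes with an adjusted p. The 95% interval of the difference lay within 0.3 of 0 on the log2 scale for 38 of the 42 genes in edgeR with the block. That fit leaves few residual degrees of freedom, so its p-values and intervals lean on variance estimated over all genes together.

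Srsf5, an SR protein that binds exonic splicing enhancers, stood at 220.8 CPM in control and 192.8 CPM in PEDF MEFs of experiment 1, and at 255.5 and 219.4 CPM in experiment 2. Both PEDF libraries were below both control libraries, and the ratio was alike in the 2 experiments, with log2 values of -0.20 and -0.22. The group means were 238.2 ± 24.5 CPM in controls and 206.1 ± 18.8 in PEDF MEFs (SD, n = 2). Without the block the log2 fold change was -0.21 (SE 0.084, edgeR adjusted p = 0.696), and with the block it was -0.21 (SE 0.048, edgeR adjusted p = 0.00124). In fits without the block, it was -0.10 without the control library of experiment 2 and -0.12 without the PEDF library of experiment 1. It was -0.31 without the control library of experiment 1 and -0.30 without the PEDF library of experiment 2. Leaving out a library breaks the pairing, so these values also hold the difference between experiments. Srsf5 lies at chr12:80945504-80950507 on the plus strand of GRCm38, and 22.6% of the 75-base stretches of its longest coding transcript also occur in Gm12966. The alignments were not examined, so how reads of those stretches were assigned was not tested.

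Srsf11, an SR-related protein that binds U2AF, was at 191.2 CPM in control and 160.5 in PEDF MEFs of experiment 1, and at 204.3 and 186.0 CPM in experiment 2. Again both PEDF libraries lay below both controls, and the difference was larger in experiment 1 (log2 -0.25) than in experiment 2 (-0.14). The log2 fold change was -0.19 (SE 0.080, edgeR adjusted p = 0.696) without the block and -0.19 (SE 0.050, edgeR adjusted p = 0.00589) with it. In fits without the block, leaving out the PEDF library of experiment 1 gave -0.090 and leaving out that of experiment 2 gave -0.30. Srsf11 spans chr3:158010473-158036639 on the minus strand, and none of its 75-base stretches occurred in another gene's transcript.

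The other 9 SR genes did not pass any of these tests, also at an unadjusted p under 0.05, and their log2 fold changes ran from -0.091 (Srsf12) to 0.014 (Srsf7). Srsf1, a founding SR protein, was almost level at 315.6 and 315.6 CPM in experiment 1 and 323.0 and 319.9 in experiment 2. Srsf2, the SR protein of nuclear speckles, had 275.5 CPM in control and 277.4 in PEDF MEFs of experiment 1, then 301.8 and 288.2. For both genes the control and PEDF libraries overlapped. Over the family, 9 of the 11 fitted values were negative, as were 9652 of the 19384 over all genes. Srsf3, the smallest SR protein, had a log2 fold change of -0.022, Srsf6 -0.045, Srsf10 -0.034, Srsf4 -0.080 and Srsf9 0.011. Srsf4 was at 73.5 and 73.0 CPM in experiment 1 and at 81.9 and 74.1 in experiment 2, and 43.0% of its exon bases are overlapped by Gm12992 on the opposite strand. Srsf12 had few counts, and its 95% interval with the block ran from -0.62 to 0.47.

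In all, 6 SR genes were lower with PEDF in both experiments and 0 were higher in both, where 28.8% of all genes were lower and 30.1% higher in both. Some of the 6 were almost level, such as Srsf1 with log2 values of -0.0003 and -0.014. The family's median log2 fold change was -0.034, beside 0.0012 for all genes tested, and it was -0.039 in experiment 1 and -0.014 in experiment 2. Summed over the family, SR transcripts made up 1984 CPM in control and 1908 CPM in PEDF MEFs of experiment 1, and 2086 and 1997 CPM in experiment 2. Annotated transcripts of the nonsense-mediated decay type were present in 9 of the 11 SR genes (81.8%), in 50.0% of the hnRNP genes and in 36.4% of the snRNP genes, against 26.6% of all protein-coding genes tested. Reads of such isoforms were not separated from the others in counts per gene.

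**Figure D1:**
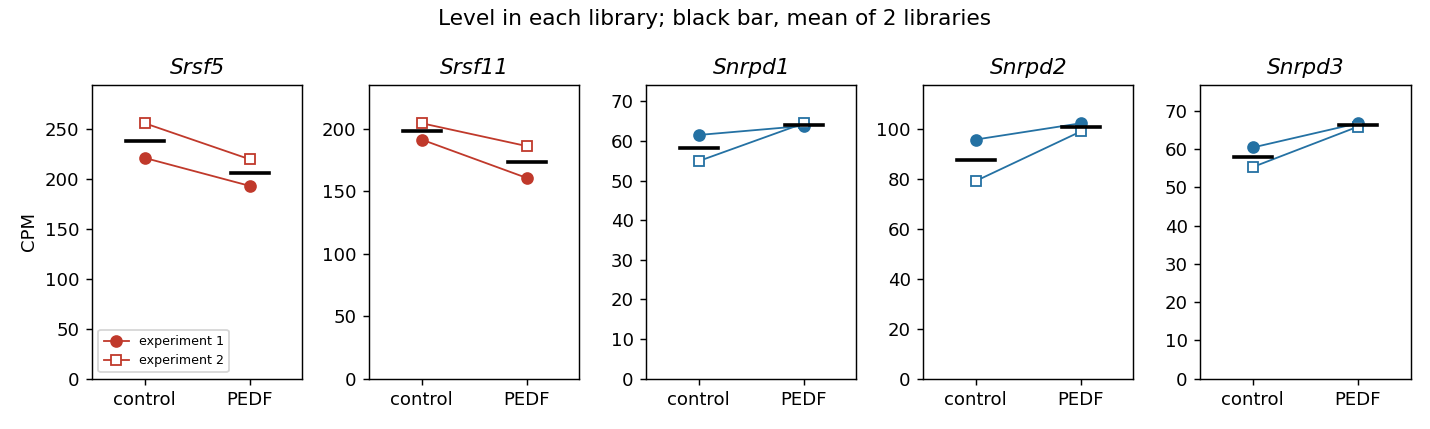
Level (CPM, y axis from 0) of 5 genes in control and PEDF libraries, with a line joining the libraries of 1 experiment and black bars for the group means of 2 libraries. Srsf5 and Srsf11 sit lower in both PEDF libraries, and Snrpd1, Snrpd2 and Snrpd3 sit higher in both, with the lowest control values of the Snrpd genes in experiment 2.

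Among the snRNP genes, those for the 3 Sm D proteins were higher in both PEDF libraries than in both control libraries, as were 18.9% of all genes, and the groups overlapped for the other 4 genes of the Sm ring. Snrpd2, whose product pairs with that of Snrpd1 in the Sm ring, was at 95.7 CPM in control and 102.2 in PEDF MEFs of experiment 1, and at 79.1 and 99.0 CPM in experiment 2. The PEDF libraries were close to each other, whereas the controls differed from each other by more than the treatment did in experiment 1. Its log2 fold change was 0.20 (SE 0.088, edgeR adjusted p = 0.705) without the block and 0.21 (SE 0.058, edgeR adjusted p = 0.013) with it. Without the block the value rested mainly on the control library of experiment 2. It was 0.071 without that library and 0.35 without the control library of experiment 1. Snrpd2 is at chr7:19149722-19153542 on the plus strand, and 8.84% of its 75-base stretches are shared, mostly with Gm10120.

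Snrpd3, whose product pairs with SmB in the ring, was at 60.4 CPM in control and 66.8 in PEDF MEFs of experiment 1, and at 55.3 and 65.9 in experiment 2. The groups did not overlap, and the log2 fold change was 0.20 (SE 0.067, edgeR adjusted p = 0.0634) with the block, which did not pass. Snrpd1 (chr18:10617775-10642079) was at 61.5 and 63.8 CPM in experiment 1 and at 54.9 and 64.5 in experiment 2. The groups were again apart, with a log2 fold change of 0.14 (SE 0.067, edgeR adjusted p = 0.268) with the block. For Snrpd1, fits without the block gave 0.059 without the control library of experiment 2 and 0.22 without that of experiment 1.

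The remaining 8 snRNP genes were not called by edgeR or DESeq2 in any fit, and 1 of them, Snrpa, had an unadjusted p under 0.05 once the length trend was removed. Snrpb2, a U2 protein that binds the U2 snRNA, was at 45.6 and 48.6 CPM in experiment 1 and 42.6 and 46.0 in experiment 2, with both PEDF libraries above both controls. Its partner Snrpa1 had a log2 fold change of 0.080, the U1 protein gene Snrpc 0.067, and Snrpg, of the Sm ring, 0.086. The other U1 protein gene, Snrpa, was at 112.1 and 99.1 CPM in experiment 1 but 102.9 and 104.3 in experiment 2. Snrpb had a log2 fold change of -0.030, and its values also lay in opposite directions in the experiments (-0.092 and 0.035). Snrpf had -0.0004, and 85.4% of its exon bases are overlapped on the opposite strand by 4933408J17Rik and Ccdc38, so its counts depend on a strand setting that is not given in the sources used here.

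Counted together, 6 of the 11 snRNP genes were higher with PEDF in both experiments and 0 were lower in both, beside 30.1% and 28.8% of all genes. With the correction for length described below, 6 were higher in both and 3 lower in both, beside 28.0% and 28.6% of all genes. The uncorrected median log2 fold change of the family was 0.080, but it was 0.031 within experiment 1 and 0.13 within experiment 2. The control libraries themselves differed, since 11 of the 11 snRNP genes were lower in the control of experiment 2 than in that of experiment 1 (median log2 -0.14), against 49.6% of all genes. After correction for length this held for 10 of the 11 (median -0.10), against 49.4% of all genes. Between the PEDF libraries, 7 of the 11 were lower in experiment 2 (median -0.019), against 49.8% of all genes. Summed snRNP transcripts accordingly stood at 828.9 CPM in the control of experiment 1 and 747.8 in that of experiment 2, but at 816.3 and 817.6 CPM in the PEDF libraries. Without the control library of experiment 2 the family's median was 0.011, and without the control library of experiment 1 it was 0.15.

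**Figure D2:**
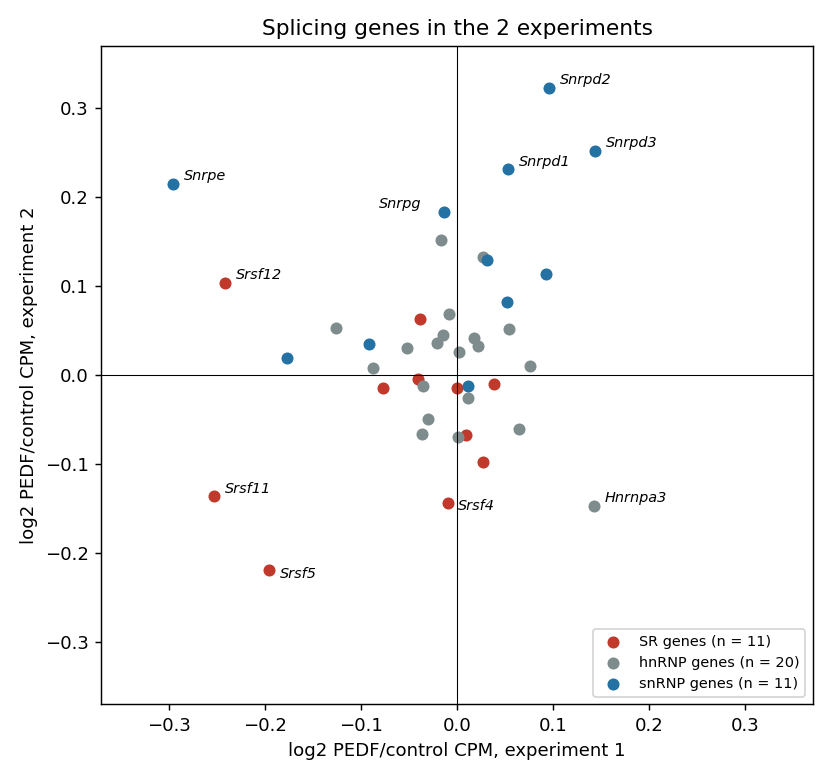
Log2 ratio of PEDF to control CPM in experiment 1 (x axis) and experiment 2 (y axis), 1 point per gene, coloured by family. Srsf5 and Srsf11 lie in the lower left quadrant, the 3 Snrpd genes in the upper right, the hnRNP genes cluster around 0, and Snrpe lies at -0.30 and 0.22, in opposite directions.

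Over all 42 genes, both PEDF libraries were above both control libraries for 7, which were Snrpd1, Snrpd2, Snrpd3, Snrpb2, Hnrnpa1, Hnrnpc and Hnrnpl, against 18.9% of all genes. Both were below both controls for 2, Srsf5 and Srsf11, against 18.4% of all genes. Shares of 7 and 2 among 42 genes were thus near or under the background.

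Snrpe, which encodes another Sm ring protein, had PEDF to control ratios of opposite sign in the 2 experiments, and its counts are given beside those of Snrpert, a gene that shares 17.3% of the 75-base stretches of the longest coding transcript of Snrpe. Snrpe had 901 counts in control and 773 in PEDF MEFs of experiment 1, and 960 and 1113 in experiment 2. Snrpert had 154 and 277 counts in experiment 1 and 124 and 132 in experiment 2, so it was highest in the PEDF library of experiment 1, where Snrpe was lowest. Of the counts given to either gene, Snrpert took 14.6% in the control (95% Wilson interval 12.6 to 16.9) and 26.4% in the PEDF library (23.8 to 29.1) of experiment 1. In experiment 2 it took 11.4% (9.68 to 13.5) and 10.6% (9.01 to 12.4), and these intervals cover counting error only. Taken alone, Snrpe had log2 ratios of -0.30 and 0.22 in the experiments, and the 2 genes summed had -0.081 and 0.20. For Snrpert the log2 fold change was 0.53 (edgeR adjusted p = 0.897) without the block and 0.47 (edgeR adjusted p = 0.0479) with it. The authors counted uniquely mapped reads, and the alignments were not examined here, so how reads of the shared stretches were assigned was not tested and the values of both genes are uncertain.

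**Figure D3:**
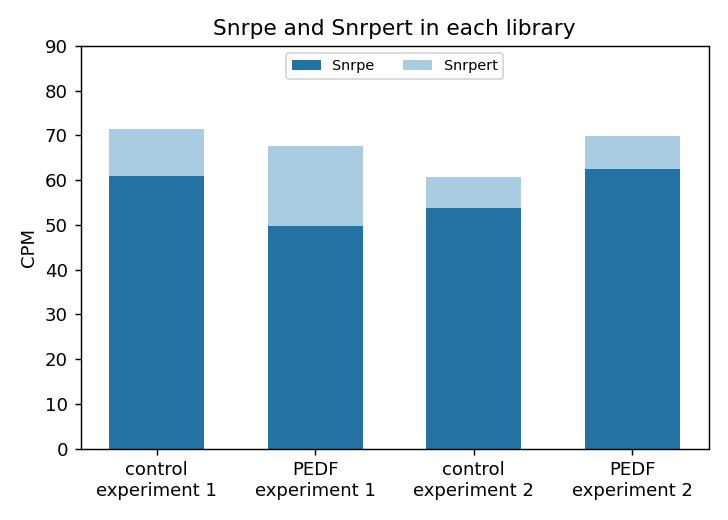
Stacked bars of CPM (y axis from 0) for Snrpe and Snrpert in each of the 4 libraries. The Snrpert part is tallest in the PEDF library of experiment 1, at 17.8 CPM, and the summed bars lie between 60.8 and 71.4 CPM.

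The 20 hnRNP genes showed the smallest differences, and edgeR called 0 of them in any fit, with 0 at an unadjusted p under 0.05 without or with the block and 1, Hnrnpr, with the length trend removed. DESeq2 called 0, with 0 at an unadjusted p under 0.05. Their fitted values ran from -0.052 (Hnrnph1, a binder of G-rich sequence) to 0.079 (Hnrnpc, which coats nascent transcripts), with a median of 0.0048. Hnrnpa1, a repressor of many exons, was at 624.3 and 648.0 CPM in experiment 1 and at 625.6 and 648.3 CPM in experiment 2. Both PEDF libraries exceeded both controls, yet its log2 fold change was 0.053 (SE 0.043, edgeR adjusted p = 0.649) with the block, and 44.4% of its 75-base stretches also occur in 13 other genes. Hnrnpc was at 342.9 and 349.4 CPM in experiment 1 and at 319.1 and 349.8 in experiment 2, where the control of experiment 2 was the lowest of the 4. Hnrnpl, a binder of CA repeats, was at 359.3 and 378.6 CPM and then at 376.1 and 378.7, so in experiment 2 the libraries were nearly level.

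Hnrnpu, the scaffold attachment factor and most abundant by CPM, was at 725.5 and 708.0 CPM in experiment 1 and at 740.3 and 733.8 in experiment 2. Hnrnpa2b1 (-0.040), Hnrnpk (0.030), Hnrnpm (0.0071), Hnrnpf (0.014), Hnrnpab (0.030) and Hnrnpa0 (0.027) were each within 0.05 of 0 by fitted log2 fold change. The same was so for Hnrnpd (-0.0071), Hnrnpdl (-0.036), Hnrnph3 (-0.036), Hnrnpll (-0.040), Hnrnpul1 (0.0025) and Hnrnpul2 (-0.011). Hnrnph2 reached 0.067. Hnrnpa3 had opposite values in the experiments, at 44.2 and 48.8 CPM and then at 50.5 and 45.6, and its transcript shares 27.9% of its 75-base stretches with 37 other genes. Exons of Hnrnpab and Hnrnpf are overlapped on the opposite strand over 29.1% and 26.5% of their bases. In total 6 of the 20 hnRNP genes were higher in both experiments and 3 were lower in both, beside 30.1% and 28.8% of all genes, and 11 were split.

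Expression was also compared between genes per length, as mean TPM over the 4 libraries, a level and not a difference. The highest were Hnrnpab (619.1 TPM), Hnrnpa1 (571.7), Hnrnpa0 (467.1), Hnrnpa2b1 (302.9) and Srsf2 (273.7). Among snRNP genes Snrpb led with 224.2 TPM, ahead of Snrpf with 205.8. The lowest were Srsf12 (2.61 TPM), Hnrnpr (16.8), Hnrnpll (21.2) and Hnrnpa3 (24.8). These lengths count every annotated exon of a gene, for Hnrnpr 22199 bases, whether or not MEFs use it, and exon use was not measured.

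The families differ in length, and fold changes followed length over all genes, so length was taken into account. Median exon length was 3988 bases for SR, 5898 for hnRNP and 2618 for snRNP genes, against 3614 for all genes tested. These lengths too count every annotated exon, so the correction below does not use the lengths of the transcripts present in MEFs. With treatment as the only term, the median log2 fold change of genes with a mean CPM of at least 1 was 0.072 under 1000 bases and 0.083 from 1000 to 2000 bases, and it was -0.070 from 8000 to 16000 and -0.15 above that. Shorter genes thus tended to be higher and longer genes lower with PEDF, in both experiments.

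When this trend was removed in edgeR with the block, Srsf5 was the single gene of the 42 still called. It had a log2 fold change of -0.23 (SE 0.046, edgeR adjusted p = 0.000273), where 2.15% of all genes were called (0.975% higher and 1.18% lower). Srsf11, with 8446 annotated exon bases but 3106 in its longest coding transcript, went to -0.14 (edgeR adjusted p = 0.098). Snrpd2, with 2618 exon bases and 1420 in that transcript, went to 0.16 (edgeR adjusted p = 0.123). Snrpd3 was at 0.17 (edgeR adjusted p = 0.202) and Snrpd1 at 0.087 (edgeR adjusted p = 0.681). Hnrnpr, the longest of the 42, went from 0.016 to 0.16 (edgeR adjusted p = 0.078). At an unadjusted p under 0.05, 6 of the 42 passed, namely Srsf5, Srsf11 and Snrpa with negative values and Snrpd2, Snrpd3 and Hnrnpr with positive ones, against 11.8% of all genes.

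Family medians after removal of the trend were -0.048 for SR, 0.028 for hnRNP and 0.043 for snRNP genes, beside -0.0001 for all genes. Within experiments the corrected medians were -0.032 and -0.045 for SR genes, 0.0096 and 0.012 for hnRNP genes, and 0.0009 and 0.11 for snRNP genes. The corrected snRNP median was thus near 0 in experiment 1 and above 0 in experiment 2. In corrected values, 15 of the 42 genes were higher with PEDF in both experiments, against 28.0% of all genes, and 14 were lower in both, against 28.6%.

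**Figure D4:**
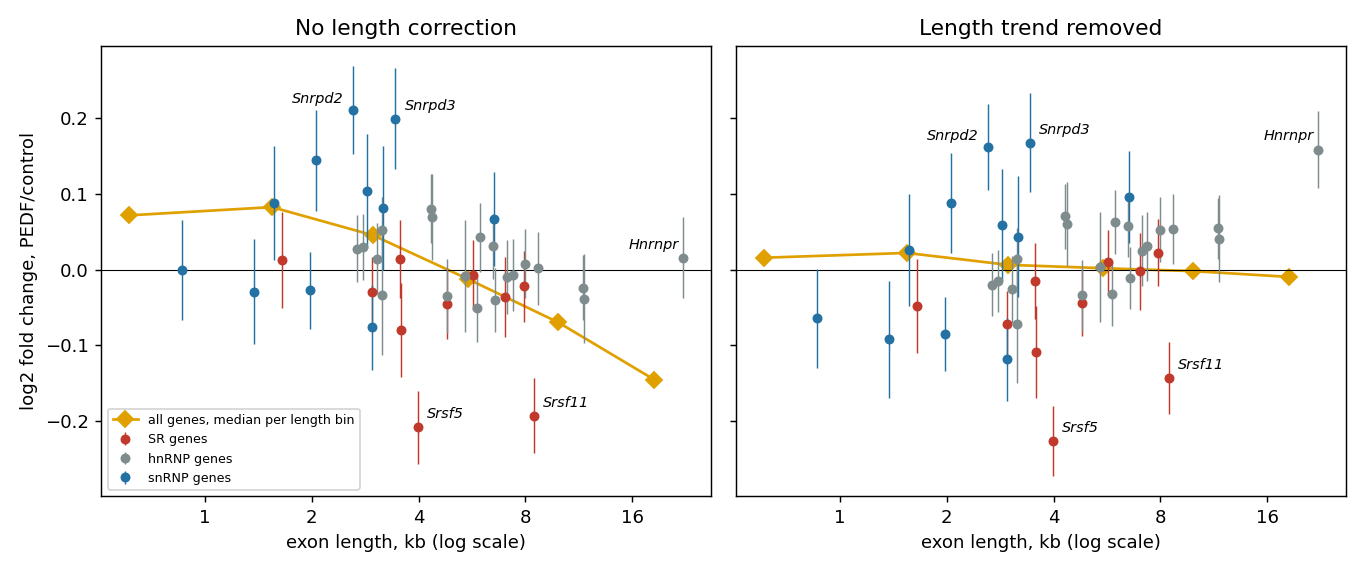
Log2 fold change of PEDF over control (y axis) against exon length in kb (x axis, log scale) for the members except Srsf12, in edgeR with the replicate block on the left and with the length trend removed on the right. Points are genes with their SE, and diamonds are medians per length bin of all genes with a mean CPM of at least 1 (left, from the fit without the block), which fall from 0.072 to -0.15 on the left and stay near 0 on the right, where Srsf5 remains lowest at -0.23.

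The promoters of the 3 genes called with the block are shown because these genes were called in different directions, 2 lower and 1 higher. Each is 300 bases from RefSeq on GRCm38.p6, 5′ to 3′ on the gene's strand. Capitals mark the motif CGGAAG on either strand (CTTCCG on the other), a string found in ETS family binding sites that was chosen after these sequences were seen.
Srsf5 (chr12:80945249-80945548, plus strand): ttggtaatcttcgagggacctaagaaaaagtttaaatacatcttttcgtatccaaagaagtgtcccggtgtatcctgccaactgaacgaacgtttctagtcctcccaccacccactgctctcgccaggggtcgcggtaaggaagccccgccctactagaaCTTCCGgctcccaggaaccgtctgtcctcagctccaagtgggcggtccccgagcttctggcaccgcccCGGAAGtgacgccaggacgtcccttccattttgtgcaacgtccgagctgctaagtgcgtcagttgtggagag
Srsf11 (chr3:158036557-158036856, minus strand): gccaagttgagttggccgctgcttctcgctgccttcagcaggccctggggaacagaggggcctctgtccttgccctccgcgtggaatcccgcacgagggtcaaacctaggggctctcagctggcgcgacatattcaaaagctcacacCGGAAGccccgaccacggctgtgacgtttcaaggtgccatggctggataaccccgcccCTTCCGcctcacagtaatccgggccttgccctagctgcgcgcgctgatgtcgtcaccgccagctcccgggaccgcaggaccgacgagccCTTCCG
Snrpd2 (chr7:19149588-19149887, plus strand): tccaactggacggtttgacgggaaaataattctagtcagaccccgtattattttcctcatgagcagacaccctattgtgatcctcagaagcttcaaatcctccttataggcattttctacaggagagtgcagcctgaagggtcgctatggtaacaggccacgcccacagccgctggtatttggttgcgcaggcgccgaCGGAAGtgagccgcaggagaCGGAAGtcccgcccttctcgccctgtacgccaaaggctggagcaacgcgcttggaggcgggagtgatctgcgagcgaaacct
The motif occurred 2, 3 and 2 times in these windows. A second Srsf11 promoter in RefSeq (chr3:158031699-158031998, minus strand), which is not printed, held it 1 time. RefSeq promoters were matched for 38 of the 42 genes, 51 windows in all, and 45.1% of the windows held the motif, against 26.4% of the promoters of all genes tested and 16.9% of all promoters. By family the share was 50.0% of 14 SR windows, 33.3% of 27 hnRNP windows and 70.0% of 10 snRNP windows. The motif was thus present in genes that were lower, higher or level with PEDF.

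Other genes of the splicing machinery were taken from 9 lists with 140 genes, of which 139 were tested. edgeR called 0 of them without the block, with 17 at an unadjusted p under 0.05 (6.88% of all genes). DESeq2 called 0, with 6 at an unadjusted p under 0.05, for which no share of all genes was computed. With the block edgeR called 3 higher and 8 lower, beside 1.67% and 2.07% of all genes, and with the length trend removed as well 2 higher and 3 lower, beside 0.975% and 1.18%. DESeq2 with the block called Son and Srrm2, 2 of the 44 for which it gave an adjusted p, beside 6.55% of all genes with one. The lowest value belonged to Snrnp48, a protein of the minor spliceosome, at 27.5 CPM in control and 19.5 in PEDF MEFs of experiment 1 and at 32.8 and 27.8 in experiment 2. Its log2 fold change was -0.35 (edgeR with the block, adjusted p = 0.0118). With the length trend removed as well it was -0.29 and did not pass (edgeR adjusted p = 0.0933). In fits without the block it was -0.12 without the PEDF library of experiment 1 and -0.63 without that of experiment 2.

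Srrm2, a scaffold of nuclear speckles, was at 383.3 and 321.4 CPM in experiment 1 and at 464.7 and 352.3 in experiment 2, with both PEDF libraries below both controls. It had a log2 fold change of -0.33 (edgeR with the block, adjusted p = 1.78e-10) and -0.24 with the length trend removed (adjusted p = 1.45e-05). With treatment as the only term it was -0.33 and not called (edgeR adjusted p = 0.612). Smg1, the kinase that phosphorylates UPF1 in nonsense-mediated decay, had -0.26 (edgeR with the block, adjusted p = 0.000375) but -0.11 (edgeR adjusted p = 0.396) with the trend removed. On the positive side, Rbm8a, the exon junction protein Y14, was at 76.5 and 89.4 CPM and then at 73.2 and 86.8, with 0.24 (edgeR with the block, adjusted p = 0.00554) and 0.20 with the trend removed (adjusted p = 0.0421), but 0.18 (edgeR adjusted p = 0.0851) with length and GC content corrected together. Snu13, a tri-snRNP protein, had 0.22 (edgeR with the block, adjusted p = 0.01) and Raly, an hnRNP-like protein, 0.18 (edgeR with the block, adjusted p = 0.00745). With the length trend removed they were at 0.18 (edgeR adjusted p = 0.0821) and 0.15 (edgeR adjusted p = 0.0583), and neither passed. With length and GC content corrected together, Raly passed at 0.16 (edgeR adjusted p = 0.0131) and so did Snrnp48 at -0.31 (edgeR adjusted p = 0.0492). In fits without the block, the values of Srrm2, Smg1 and Raly were -0.19, -0.15 and 0.089 without the control library of experiment 2. They were -0.465, -0.373 and 0.271 without the control library of experiment 1. The value of Snu13 was 0.12 without the PEDF library of experiment 1 and 0.317 without that of experiment 2. Son, Prpf8 and Matr3, named after their values were seen, made up the rest of the 5 genes called with the trend removed, at -0.16, -0.16 and 0.21 (edgeR adjusted p = 0.0208, 0.0192 and 0.0113).

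By list, the SR protein kinases and SR-related proteins had the lowest median, and that list also holds long genes (median 8350 exon bases). Of its 18 genes, 14 were lower in both experiments and 0 higher in both, beside 28.8% and 30.1% of all genes, and after length correction these were 12 and 2, beside 28.6% and 28.0%. With the block 3 were called lower (Srrm2, Son and Srek1, the last also named after its values were seen), beside 2.07% of all genes, and 2 with the trend removed. The median log2 fold change was -0.12, and -0.071 with the trend removed. The proteins of Sm assembly, which load the Sm ring onto snRNA, had a median of 0.0995 with 0 of 13 genes called by edgeR with or without the block, and 4 with the block at an unadjusted p under 0.05, beside 14.6% of all genes. The LSm proteins, relatives of the Sm proteins, had a median of 0.053 with 0 of 10 called in either fit, and 1 at an unadjusted p under 0.05 in each, beside 6.88% of all genes without the block and 14.6% with it. For the remaining lists edgeR calls with the block are given, beside 1.67% of all genes called higher and 2.07% lower. The tri-snRNP list had 1 of 16 genes called higher and 1 lower, and the exon junction list 1 of 12 each way. The U1, U2 and minor particle list had 2 of 10 called lower, the branch site list 1 of 13 lower, and the other RNA-binding regulators 1 of 27 higher. The catalytic list had 0 of 20 called, with 2 at an unadjusted p under 0.05, beside 14.6% of all genes.

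**Figure D5:**
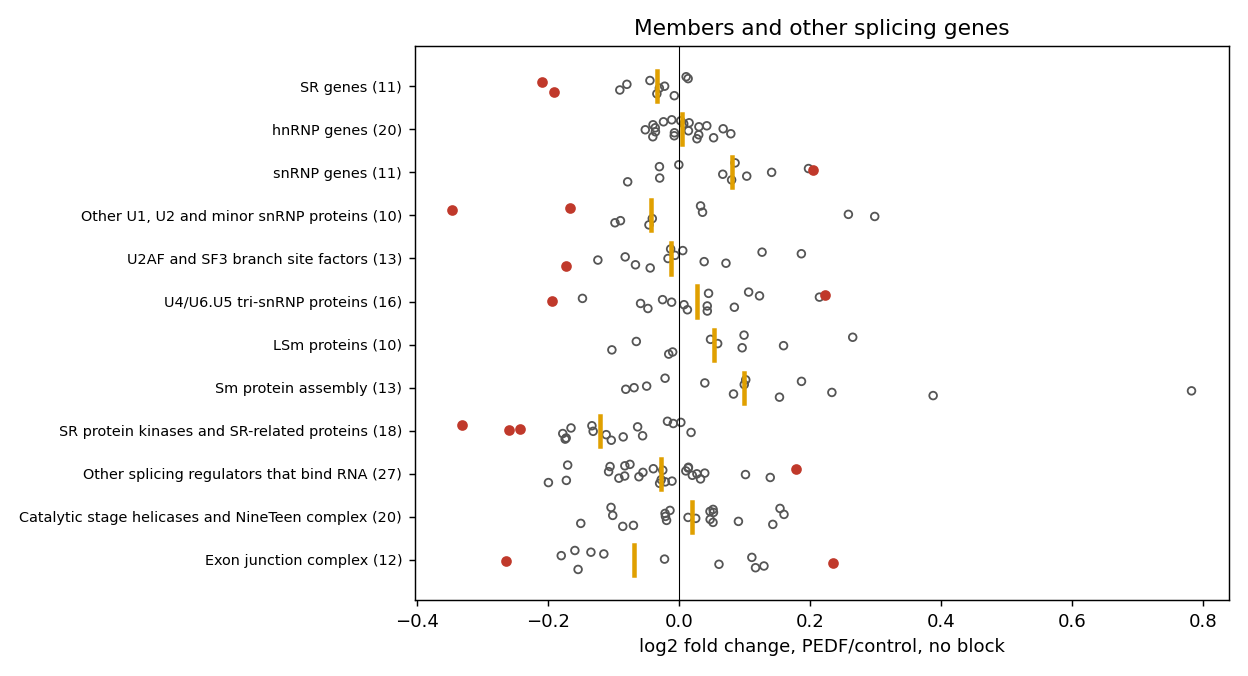
Log2 fold change without the block (x axis) of each gene in the 3 families and 9 lists (rows, number of genes tested in brackets), with yellow bars for medians and filled points for genes called by edgeR with the replicate block. SR genes and the SR kinase and SR-related list have medians below 0, at -0.034 and -0.12. So do the exon junction (-0.069), U1, U2 and minor particle (-0.043), other RNA-binding (-0.027) and branch site (-0.013) lists. The point furthest right, Gemin4 (named after its value was seen), had at most 5 counts in a library.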

How the data were processed

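Polyadenylated RNA of 2 control and 2 PEDF-treated MEF cultures was sequenced from directional libraries. The authors trimmed reads with Trimmomatic 0.38, aligned them with HISAT2 2.1.0 and counted those mapped uniquely per gene with featureCounts 1.6.3, per the labels, and deposited these raw counts and TPM values. The strand setting is not given in the sources used here. Coordinates and strand of 54784 of the 55487 genes equalled those of GENCODE M21 (GRCm38), and of the 14595 genes with 20 or more counts in control replicate 1, 98.4% had a length implied by counts and TPM within 1% of the M21 exon length.

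Counts of genes with at least 10 counts in total were tested with edgeR 4.0.16 (R 4.3.3, TMM, robust quasi-likelihood test, Benjamini-Hochberg adjustment over 19384 genes), with treatment as the only term. The experiment number was also fitted as a replicate block, since the submitters' design text gives each experiment its own embryos. Over 10709 genes with a mean CPM above 8, the differences between experiments in control and in PEDF libraries correlated with r = 0.428, computed over genes rather than independent replicates. A natural spline (5 degrees of freedom) on log2 exon length gave the length correction, used as an offset. DESeq2 1.42.0, limma 3.58.1 on log2(TPM + 1) and log2(TPM + 0.1), other filters and factors, and each library left out in turn were alternatives. The correction for length and GC content together was chosen after seeing the data. Methods were tested on simulated data with planted changes far larger than the members' differences. That test does not cover changes as small as theirs.

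The members and lists were chosen with earlier results of these data known. All members could be named. Of the pathway lists, genes called with the block were named by rule, at most the 3 highest and 3 lowest. Son, Srek1, Prpf8, Matr3 and Gemin4 were named after their values were seen. With 14722848 to 18144640 counts per library, the median SE of the members' log2 fold changes was 0.0749, and 0.0503 with the block. Some sequences that were examined are not reported here.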

Additional observations from a re-analysis of the deposited data

How the results depend on the processing

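Without a block, edgeR called 0 members higher and 0 lower, and so did length correction alone, DESeq2, DESeq2 with the block (which gave an adjusted p for 25 of the 42 members, Snrpd2 not among them), RLE factors, no filter on low counts, filterByExpr, limma with either pseudocount and each library left out. The replicate block called 1 higher and 2 lower, the block with length correction 0 and 1 (Srsf5), and the block with length and GC correction, chosen after seeing the data, 0 and 2 (Srsf5 and Srsf11). The SR median of -0.034 was -0.058 and -0.059 in limma on log2(TPM + 1) and log2(TPM + 0.1), -0.069 in the block with length and GC correction, -0.014 within experiment 2, and -0.057 to -0.021 with 1 library left out. The hnRNP median of 0.005 was 0.028 in the block with length correction, 0.027 with length correction alone, -0.019 in limma with either pseudocount, 0.028 within experiment 2 and -0.001 to 0.032 with 1 library left out. The snRNP median of 0.080 moved by less than the SD between experiments (0.07) under these alternatives, and was lowest without the control library of experiment 2 (0.011) and in the block with length and GC correction (0.022). The block changed no other call among the members. Of the 6 pathway genes named by rule, edgeR without the block called Srrm2 with no filter on low counts (adjusted p = 0.00344), and Srrm2 (0.00225) and Smg1 (0.0326) without control replicate 1. The causes were not tested. With the block and 1 library left out no residual degrees of freedom remained, so these were not run. With 2 libraries a group, the median SE of a member's log2 fold change was 0.0749 without the block, and sequence shared with copies limits Srsf5, Snrpe and several hnRNP genes.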
